A study of Mus musculus with 10 samples.

Results

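The genes examined were the mouse DNA methyltransferases Dnmt1, Dnmt3a, Dnmt3b and Dnmt3l and the cofactors Uhrf1, Uhrf2 and Hells. The probes used were all those that the deposited scanner files assign to these 7 genes out of 31539 gene names, and they make up 11 of 39429 gene probes. The RNA came from mouse embryonic stem (ES) cells without Tet1, Tet2 or both, the dioxygenases that oxidise 5-methylcytosine, and from wild-type cells. Double knockout (DKO) cells were represented by male lines 51 and 61 and female lines 60 and 59. Tet2 knockout (T2KO) cells were represented by male line 16 alone. Tet1 knockout (T1KO) cells were represented by male lines 99 and 65. Wild-type (WT) cells were represented by male lines 6 and 92 and female lines 7 and 94. All lines had the background strain C57/BL/6 and were cultured in LIF medium on irradiated fibroblast feeders. Preplating was used to remove the feeders ahead of RNA extraction, and the levels of feeder markers are given below. The labels name no allele.

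Dnmt1 copies methylation onto newly made DNA, and Uhrf1, which recognises hemimethylated CpG sites, brings it to the replication fork. Uhrf2 is a paralogue of Uhrf1, and Hells (Lsh) is a chromatin remodeller needed for normal methylation of repeats. Dnmt3a and Dnmt3b set methylation de novo, and Dnmt3l is a catalytically inactive partner that stimulates both. In mouse ES cells Dnmt3b and Dnmt3l are abundant, and Dnmt3b is known to be higher in the primed state, the state of the epiblast after implantation, than in the naive state.

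The Dnmt1 probe and one of the Uhrf1 probes cross an exon junction, so they can pair in full only with spliced RNA, and their sequences are shown for that reason.
Dnmt1: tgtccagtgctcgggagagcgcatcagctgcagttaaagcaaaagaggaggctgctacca
Uhrf1 2: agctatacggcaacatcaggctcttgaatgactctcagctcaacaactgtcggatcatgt
The Dnmt1 probe spans chromosome 9 from 20711973 to 20712341 on the minus strand (mm9, which the array's design uses). The Uhrf1 2 probe spans chromosome 17 from 56451668 to 56452321 on the plus strand. The other Uhrf1 probe, Uhrf1 1, lies nearer the 3′ end, from 56462770 to 56462829. Dnmt3b was probed at 3 places on chromosome 2, from 153513403 to 153513462 (Dnmt3b 1), from 153512098 to 153512157 (Dnmt3b 2) and from 153512991 to 153513050 (Dnmt3b 3). Single probes stood for Dnmt3a (chromosome 12, 3914320 to 3914379), Dnmt3l (chromosome 10, 77526112 to 77526171) and Hells (chromosome 19, 39039914 to 39039973). Uhrf2 had a probe from 30167958 to 30168017 (Uhrf2 1) and one from 30130768 to 30130827 (Uhrf2 2), also on chromosome 19. No mm9 annotation was used here, so exons and untranslated parts are not assigned.

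Each DKO line was hybridised in Cy5 against a WT line of its sex in Cy3 on the same array, which made 4 pairs on 6 arrays (51 with 6, 61 with 92, 60 with 7 and 59 with 94). On 2 more arrays T2KO 16 (Cy5) was paired with T1KO 65 (Cy3). On the last 2 the Cy3 channel was T1KO 99, and the Cy5 channel was a sample set aside in the labels for a wrong genotype, which entered no comparison. No dye was swapped, so genotype and dye cannot be told apart in any ratio. Male DKO/WT, female DKO/WT and single-knockout arrays lay on 3 separate slides. In Cy5 62.6% to 69.0% of gene spots were well above background, and in Cy3 55.2% to 61.5%. The level of a Tet1 probe was 9.13 to 9.88 in DKO lines and 9.42 to 9.65 in T1KO lines, against 11.32 to 11.60 in WT lines. A Tet2 probe stood at 9.40 to 10.12 in DKO lines and 9.74 in T2KO 16, against 11.51 to 12.05 in WT lines. Another Tet2 probe was lower as well, with a mean log2 ratio of -1.91 for DKO over WT. The remaining Tet2 probe was not lower, at 7.72 to 7.89 in DKO lines and 7.73 in T2KO 16, against 7.40 to 7.78 in WT lines. All 10 ES cell markers and all 16 feeder fibroblast markers tested were well above background in every labelled channel, as were 6 of 8 primitive endoderm markers. The median level of the feeder markers, each gene taken relative to its mean over the 11 lines, ranged from -0.23 to 0.39 in DKO lines and was -0.35 in T2KO 16. It ranged from -0.27 to 0.14 in T1KO lines and from -0.54 to 0.43 in WT lines. The part that feeder RNA has in any value below was not tested.

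All 11 probes were well above background in 18 of 18 labelled channels, so every member was measured in every line and passed the filter on dim probes. The levels below are log2 intensities after normalization, and they compare lines within a probe, never a probe with another. Over the 11 lines the levels of the Dnmt3b probes spanned 1.76 to 2.01 and those of Dnmt3l 1.31 on the log2 scale. The remaining members spanned 0.25 (Uhrf2 2) to 0.83 (Dnmt3a). The median span over all tested probes was 0.64.

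**Figure D1:**
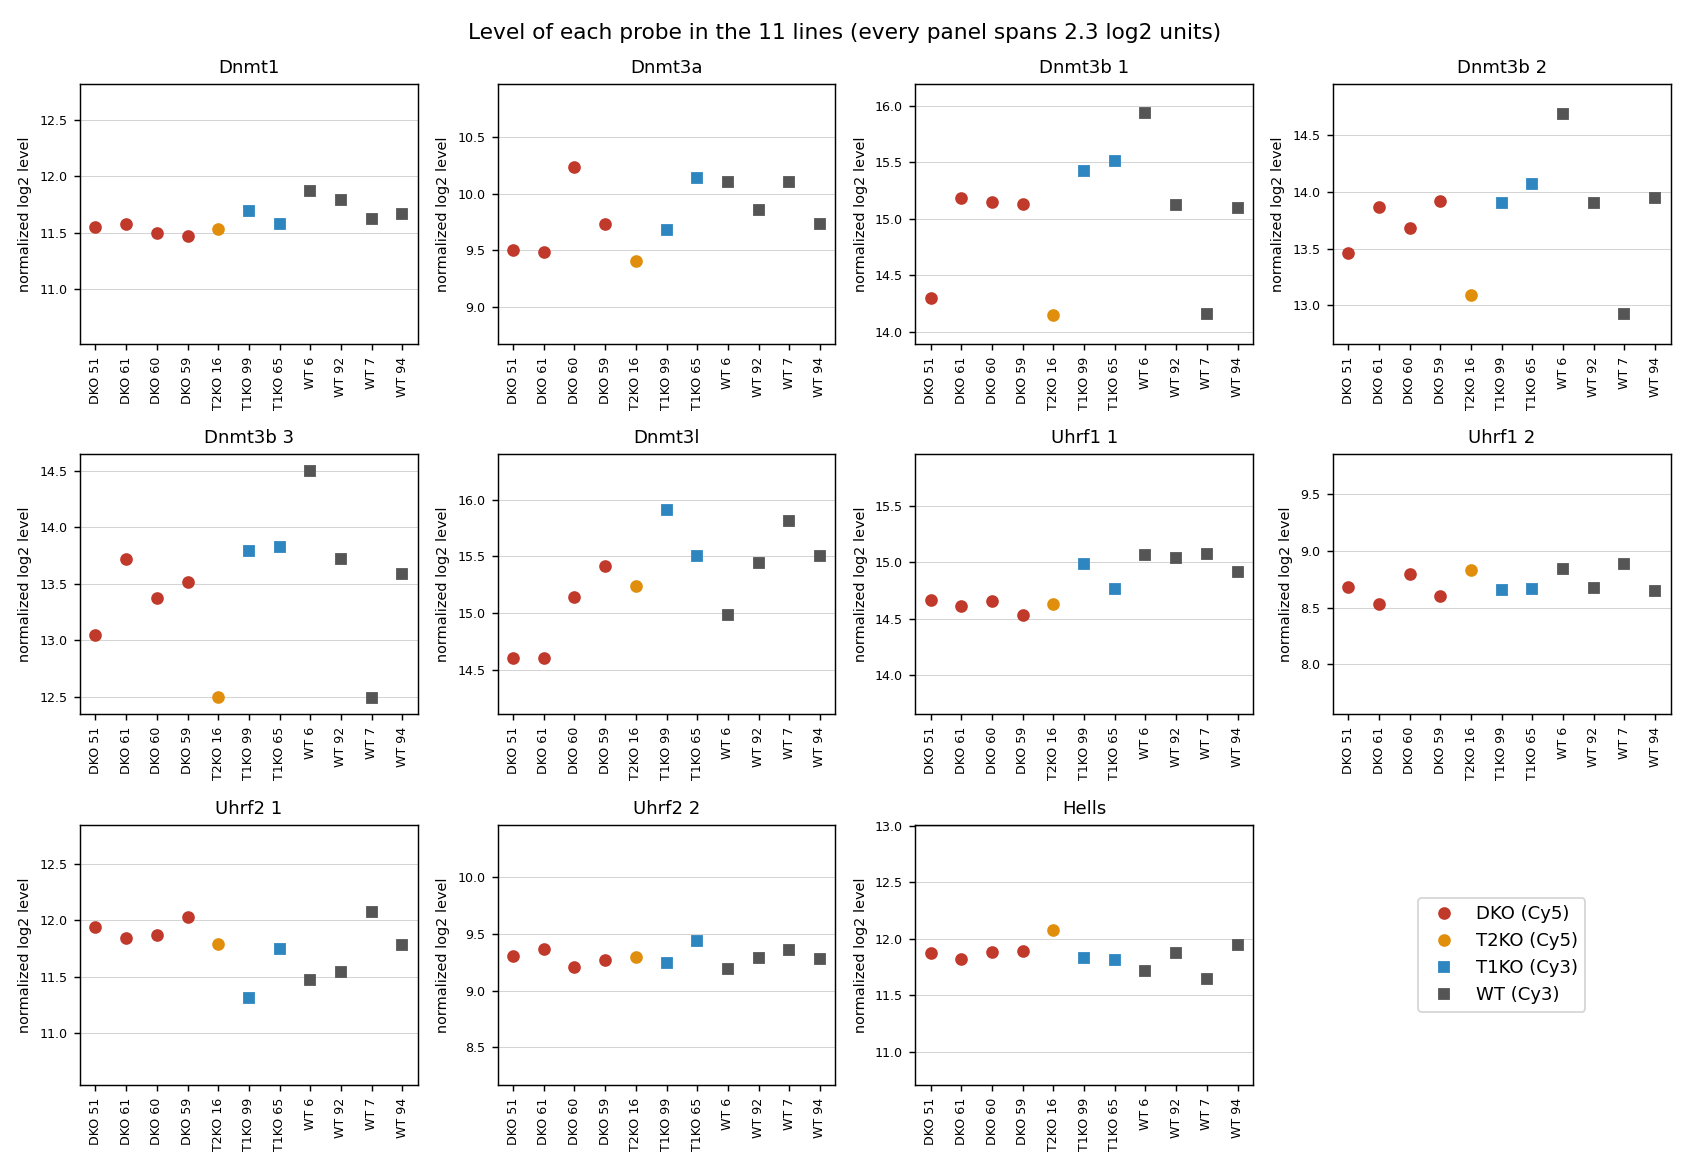
Normalized log2 level of the 11 probes in each of the 11 lines, with circles for RNA in Cy5 (DKO and T2KO) and squares for RNA in Cy3 (T1KO and WT). All panels have the same span, and only lines within a panel can be compared. The Dnmt3b probes spread most, with WT 6 at the top and T2KO 16 and WT 7 at the bottom, and the Dnmt1 and Uhrf1 1 panels show all circles below all squares.

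Loss of both Tet enzymes was examined first in the maintenance machinery. In the comparison of DKO with WT, 1 of the 11 probes passed the threshold of limma adjusted p under 0.05, namely Uhrf1 1, which fell. Of all 25851 tested probes 4% passed in either direction and 1.55% fell, and a single member says little against that share. Uhrf1 1 stood at 14.66, 14.61, 14.66 and 14.53 in DKO 51, 61, 60 and 59, against 15.06, 15.03, 15.07 and 14.91 in WT 6, 92, 7 and 94. Every DKO line was below every WT line, which held for 5.91% of tested probes. The log2 ratios of the pairs were -0.40, -0.42, -0.41 and -0.38, with a mean of -0.40 (SE 0.054, 4 pairs, 1.32-fold, limma adjusted p = 0.0319). The SD of these ratios was 0.02, and 0.399% of tested probes had a smaller one. When each array was only centred on its median, the ratio turned from -0.40 to 0.13, a larger move than the 0.17 of the median of all probes. Relative to that median it was -0.06, so the size of the fall depended on the normalization. The call was also lost when any pair was left out (adjusted p = 0.0884 to 0.170) and when sex was a term of the fit (adjusted p = 0.0693). A trended variance prior lost it too (adjusted p = 0.0623). In these settings 0, 7 and 0 of all tested probes passed, so the loss there is not particular to Uhrf1 1. With normexp fitted on all spots the value was -0.41 (adjusted p = 0.0503), and 190 probes passed. The scanner software's own ratios gave -0.29 (adjusted p = 0.107), and 774 probes passed. The call held in 6 of 15 alternative settings, among them the pair as a random block (adjusted p = 0.0131) and lines not paired by array (adjusted p = 0.0237).

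The other Uhrf1 probe, which crosses an exon junction, had a smaller difference. Uhrf1 2 stood at 8.68, 8.53, 8.80 and 8.60 in DKO 51, 61, 60 and 59, against 8.84, 8.67, 8.88 and 8.65 in WT 6, 92, 7 and 94. The DKO and WT lines overlapped, although DKO was lower in 4 of 4 pairs, as were 16.9% of tested probes. The mean log2 ratio was -0.11 (95% interval -0.25 to 0.04, limma adjusted p = 0.293), and 0.08 under median centring. This probe was dim, with raw intensities of 360.7 to 504.2 in Cy5 and 397.2 to 566 in Cy3, whereas Uhrf1 1 gave 25960 to 32380 in Cy5 and 21620 to 33530 in Cy3. The 95% interval of Uhrf1 1 ran from -0.54 to -0.27 and does not meet that of Uhrf1 2. With the scanner software's ratios the probes lay closer, at -0.29 (Uhrf1 1) and -0.17 (Uhrf1 2), and the authors' value table, which has no row for Uhrf1 1, gave -0.23 for Uhrf1 2 (limma adjusted p = 0.0715). The difference between the probes was not tested.

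Dnmt1, the methyltransferase that Uhrf1 recruits, had levels of 11.55, 11.57, 11.50 and 11.47 in DKO 51, 61, 60 and 59, against 11.86, 11.79, 11.62 and 11.67 in WT 6, 92, 7 and 94. All DKO lines again lay below all WT lines. The mean log2 ratio was -0.21 (SE 0.062, 95% interval -0.37 to -0.05, 4 of 4 pairs negative), which did not pass the threshold (limma adjusted p = 0.118). Median centring gave 0.10, or -0.09 relative to the median of all probes.

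For Dnmt1 and Uhrf1 1 the division followed the dye as well as the genotype. Uhrf1 1 stood at 14.63 in T2KO 16, labelled in Cy5, among the DKO lines, and at 14.99 and 14.76 in T1KO 99 and T1KO 65, labelled in Cy3. Dnmt1 stood at 11.53 in T2KO 16, against 11.69 and 11.58 in T1KO 99 and T1KO 65. Every Cy5 line was below every Cy3 line for both probes, a division seen in 1.48% of tested probes and in 100 (24.9%) of the 401 probes that fell in DKO over WT. The Cy5 lines (DKO and T2KO) were all without Tet2, and no Cy3 line (T1KO and WT) was a Tet2 knockout. A division of the lines by dye, here and below, is therefore also a division by loss of Tet2. DKO, loss of Tet2 and dye cannot be told apart for these 2 genes. Both genes have a RefSeq start whose preceding 250 bases hold TTTCGCGC on one of the strands, a form of the site known for E2F factors, which act on S-phase genes. The matches are shown in capitals with 11 bases on each side, on the strand of the gene.
Dnmt1, chr9:20952824-20952853, minus strand of GRCm38.p6: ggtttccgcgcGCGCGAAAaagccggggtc
Uhrf1, chr17:56304117-56304146, plus strand of GRCm38.p6: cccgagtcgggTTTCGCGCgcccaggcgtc
The match begins 219 bases before the third listed RefSeq start of Dnmt1 and 185 bases before the second of Uhrf1. No listed start of the other 5 genes had TTTCGCGC or TTTGGCGC in that window, on either strand, and 0.654% of all 32851 windows had at least 1 of them. These 2 motifs share 7 of 8 letters. The matches describe the letters only.

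Uhrf2 and Hells, a paralogue and a remodeller, did not pass the threshold. Uhrf2 1 stood at 11.94, 11.85, 11.87 and 12.02 in DKO 51, 61, 60 and 59, against 11.47, 11.54, 12.07 and 11.78 in WT 6, 92, 7 and 94. WT 7 exceeded all other lines, so the groups overlapped. The mean log2 ratio was 0.21 (95% interval -0.10 to 0.51, 3 of 4 pairs positive, limma adjusted p = 0.339). Uhrf2 2 had a mean ratio of 0.01 (95% interval -0.17 to 0.18, adjusted p = 0.967) and levels from 9.19 to 9.44 in all 11 lines. Hells stood at 11.82 to 11.90 in the DKO lines, against 11.64 to 11.95 in the WT lines. Its mean ratio was 0.07 (95% interval -0.12 to 0.27, 2 of 4 pairs positive, adjusted p = 0.589). The DKO lines of Hells lay within the range of the WT lines.

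**Figure D2:**
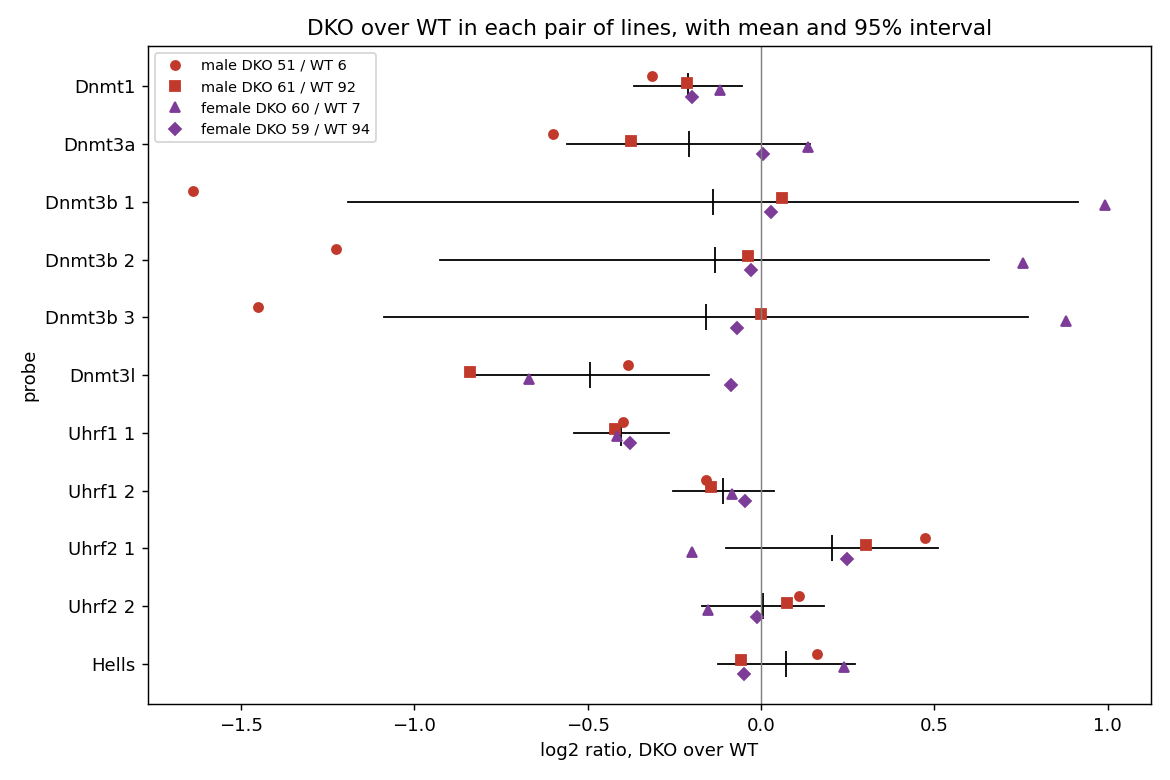
Log2 ratio of DKO over WT for each probe in the 4 pairs of lines (red for male, purple for female pairs), with the mean as a tick and its 95% interval from limma as a line. The 4 Uhrf1 1 points lie between -0.42 and -0.38, whereas those of Dnmt3b 1 run from -1.64 to 0.99. With median centring in place of loess, 8 of the 11 means change sign. The median of all probes also moves, by 0.17, which is less than the move of Uhrf1 1 from -0.40 to 0.13. Relative to that median 5 of the 11 are below 0 (Dnmt1, Dnmt3a, Dnmt3l and both Uhrf1 probes).

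Among the de novo enzymes, Dnmt3b varied more between lines than between genotypes. Dnmt3b 1 stood at 14.30, 15.19, 15.15 and 15.13 in DKO 51, 61, 60 and 59, against 15.94, 15.12, 14.16 and 15.10 in WT 6, 92, 7 and 94. It stood at 14.15 in T2KO 16, and at 15.42 and 15.51 in T1KO 99 and T1KO 65. The WT lines held both the highest value and one close to the lowest, and the SD was 0.43 over the DKO lines and 0.73 over the WT lines (n = 4 each). The pair ratios were -1.64 for 51 with 6, 0.06 for 61 with 92, 0.99 for 60 with 7 and 0.03 for 59 with 94. Thus 1 male pair and 1 female pair differed widely, in opposite directions, and the other 2 pairs hardly at all. The mean log2 ratio was -0.14 (95% interval -1.19 to 0.91, limma adjusted p = 0.860). Without the pair of DKO 51 and WT 6 the means of the 3 Dnmt3b probes were 0.36, 0.23 and 0.27, so the sign rested on that pair. Dnmt3b 2 and Dnmt3b 3 had means of -0.13 and -0.16 (adjusted p = 0.817 and 0.814). Over the 11 lines the 3 probes correlated at r = 0.948 to 0.984 (Pearson). These values have shared RNA, arrays and normalization, and the difference between repeat arrays of the same lines was at most 0.07 for any Dnmt3b probe.

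Dnmt3b was set beside lists of genes of the primed and naive states. The lines with the lowest Dnmt3b, T2KO 16, WT 7 and DKO 51, had the lowest medians of the primed list among the 11 lines, at -0.60, -0.75 and -0.14 relative to each gene's mean over the lines. Their medians of the naive list were 0.44, 0.22 and 0.24, the highest of the 11 lines. WT 6, with the highest Dnmt3b, was at -0.03 for the primed list and 0.01 for the naive list, so it did not follow this order. In the pair ratios, the median of the primed list was -0.08 for 51 with 6, 0.15 for 61 with 92, 0.70 for 60 with 7 and 0.07 for 59 with 94. That of the feeder list was 0.91 for 60 with 7, in which Dnmt3b was higher in DKO, and -0.03 for 51 with 6, in which it was lower. In the pairs in which Dnmt3b 1 hardly differed, the feeder median was -0.53 for 61 with 92 and -0.01 for 59 with 94. In bulk RNA, fewer cells of a type and less RNA per cell cannot be told apart. The part of cell state or feeder RNA in the Dnmt3b values was not tested.

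**Figure D3:**
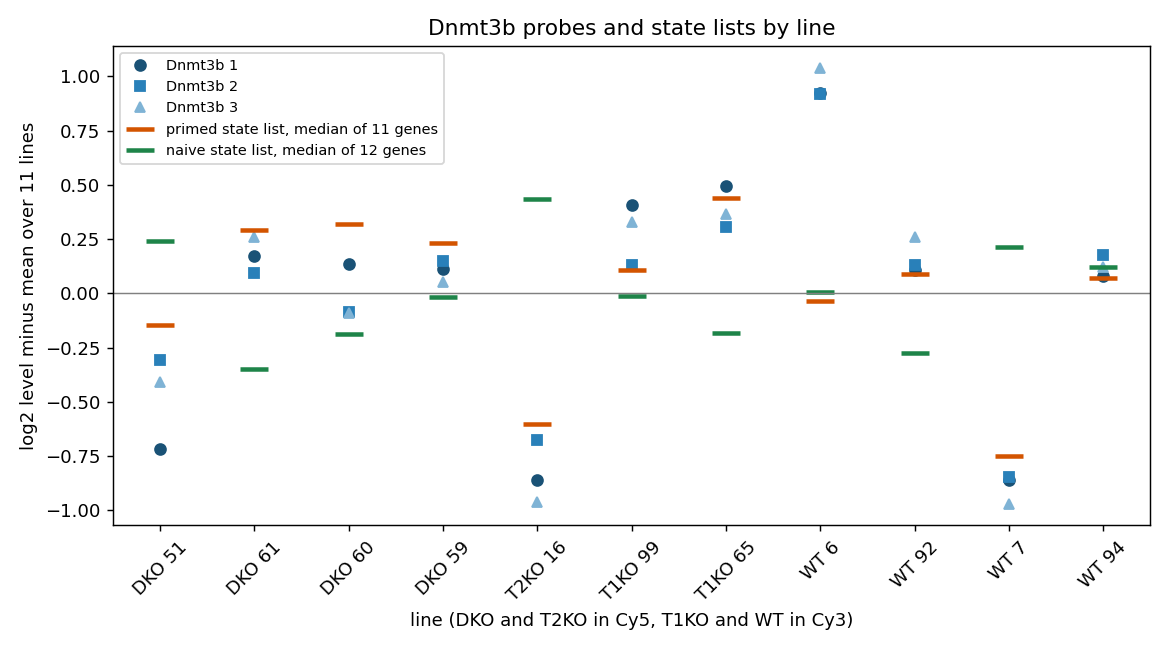
Log2 level of the 3 Dnmt3b probes relative to each probe's mean over the 11 lines, with the median of the primed list (11 genes) and the naive list (12 genes) on the same scale. T2KO 16 and WT 7 are low for Dnmt3b and for the primed list (-0.60 and -0.75) and above 0 for the naive list, while WT 6 is high for Dnmt3b with both lists near 0.

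Dnmt3l, the partner that stimulates the de novo enzymes, had the largest mean difference of the members in DKO over WT, without passing the threshold. It stood at 14.60, 14.60, 15.14 and 15.42 in DKO 51, 61, 60 and 59, against 14.98, 15.44, 15.81 and 15.50 in WT 6, 92, 7 and 94. DKO was lower within 4 of 4 pairs, but the groups overlapped through WT 6. The mean log2 ratio was -0.49 (SE 0.136, 95% interval -0.84 to -0.15, limma adjusted p = 0.107), and 0.08 under median centring, or -0.11 relative to the median of all probes. T1KO 99 had the highest Dnmt3l level of all lines, 15.91, T1KO 65 had 15.50 and T2KO 16 had 15.24.

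Dnmt3a was lower in DKO in both male pairs and near or above WT in the female pairs, without passing the threshold. Its levels were 9.51, 9.48, 10.24 and 9.74 in DKO 51, 61, 60 and 59, against 10.11, 9.86, 10.10 and 9.73 in WT 6, 92, 7 and 94. The ratios of the male pairs were -0.60 and -0.37, and those of the female pairs 0.14 and 0.01, the last being the mean of -0.03 and 0.04 on 2 repeat arrays. The mean over the 4 pairs was -0.21 (95% interval -0.56 to 0.14, limma adjusted p = 0.393). The male effect minus the female effect was -0.56 (95% interval -0.96 to -0.16, limma adjusted p = 0.834). Male and female pairs lay on different slides, so sex and slide cannot be told apart. In that comparison 0% of the tested probes passed, and 1307 had an unadjusted p under 0.05. For Uhrf1 1 the male minus female difference was -0.02 (95% interval -0.34 to 0.31).

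The single knockouts were compared directly on the arrays of T2KO 16 and T1KO 65, where 1 pair borrowed its spread from the DKO/WT pairs. Dnmt3a was at 9.41 in T2KO 16, against 10.14 in T1KO 65, with ratios of -0.76 and -0.69 on the 2 repeat arrays. The mean log2 ratio was -0.73 (95% interval -1.13 to -0.33, limma adjusted p = 0.283). It was -0.11 with normexp fitted on all spots (adjusted p = 1) and -0.44 under median centring, so its size depended on the processing. The 3 Dnmt3b probes had ratios of -1.36, -0.98 and -1.33 (adjusted p = 0.450 to 0.489). On the same arrays the median ratio was -1.02 for the primed list and 0.66 for the naive list. Uhrf1 1 had -0.13, Dnmt1 -0.05, Dnmt3l -0.26 and Hells 0.26, each with a 95% interval that includes 0. In this comparison 0% of the tested probes passed, the Tet1 and Tet2 probes included, and 3294 had an unadjusted p under 0.05 in limma.

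T1KO lines were set against male WT lines, both in Cy3 but on different slides. Dnmt3l stood at 15.91 and 15.50 in T1KO 99 and T1KO 65, against 14.98 and 15.44 in WT 6 and WT 92. The T1KO mean was higher, with a difference of 0.49 (95% interval -0.05 to 1.04, limma adjusted p = 0.408). The female lines WT 7 and WT 94, also in Cy3, stood at 15.81 and 15.50, within the range of the T1KO lines. The difference between T1KO and male WT lines was 0.26 without WT 6 and 0.29 without T1KO 99, and 0.72 without WT 92. This difference was opposite in sign to that of DKO over WT, but the 2 comparisons share WT 6 and WT 92. Uhrf1 1 differed by -0.18 (95% interval -0.49 to 0.14) and Dnmt1 by -0.19 (95% interval -0.45 to 0.07). All these lines were in Cy3, but each level was normalized together with its Cy5 partner, and the partners differed between the groups. Dnmt3b differed by -0.06 to -0.31, and by 0.09 to 0.34 without WT 6. Here 0% of the tested probes passed, and 3448 had an unadjusted p under 0.05 in limma.

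Male DKO lines were set against T2KO 16, all in Cy5 but on different slides. This sets loss of both enzymes beside loss of Tet2 alone in the same dye, but genotype and slide cannot be told apart. Each level was also normalized together with its Cy3 partner, which was a WT line for DKO and a T1KO line for T2KO 16. T2KO 16 stood alone for its genotype, so the spread came from the DKO lines. Uhrf1 1 differed by 0.01 (95% interval -0.34 to 0.36) and Dnmt1 by 0.03 (95% interval -0.29 to 0.36). Dnmt3l stood at 14.60 and 14.60 in DKO 51 and DKO 61, against 15.24 in T2KO 16, a difference of -0.64 (95% interval -1.07 to -0.21, limma adjusted p = 0.337). The 3 Dnmt3b probes differed by 0.59, 0.57 and 0.89 (adjusted p = 0.365 to 0.543). Without DKO 51 these values were 1.03, 0.77 and 1.22, and without DKO 61 they were 0.15, 0.37 and 0.55. In this comparison 0.00774% of the tested probes passed, and no member was among them. The male DKO lines also enter DKO over WT, so the 2 sets of values are not independent.

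**Figure D4:**
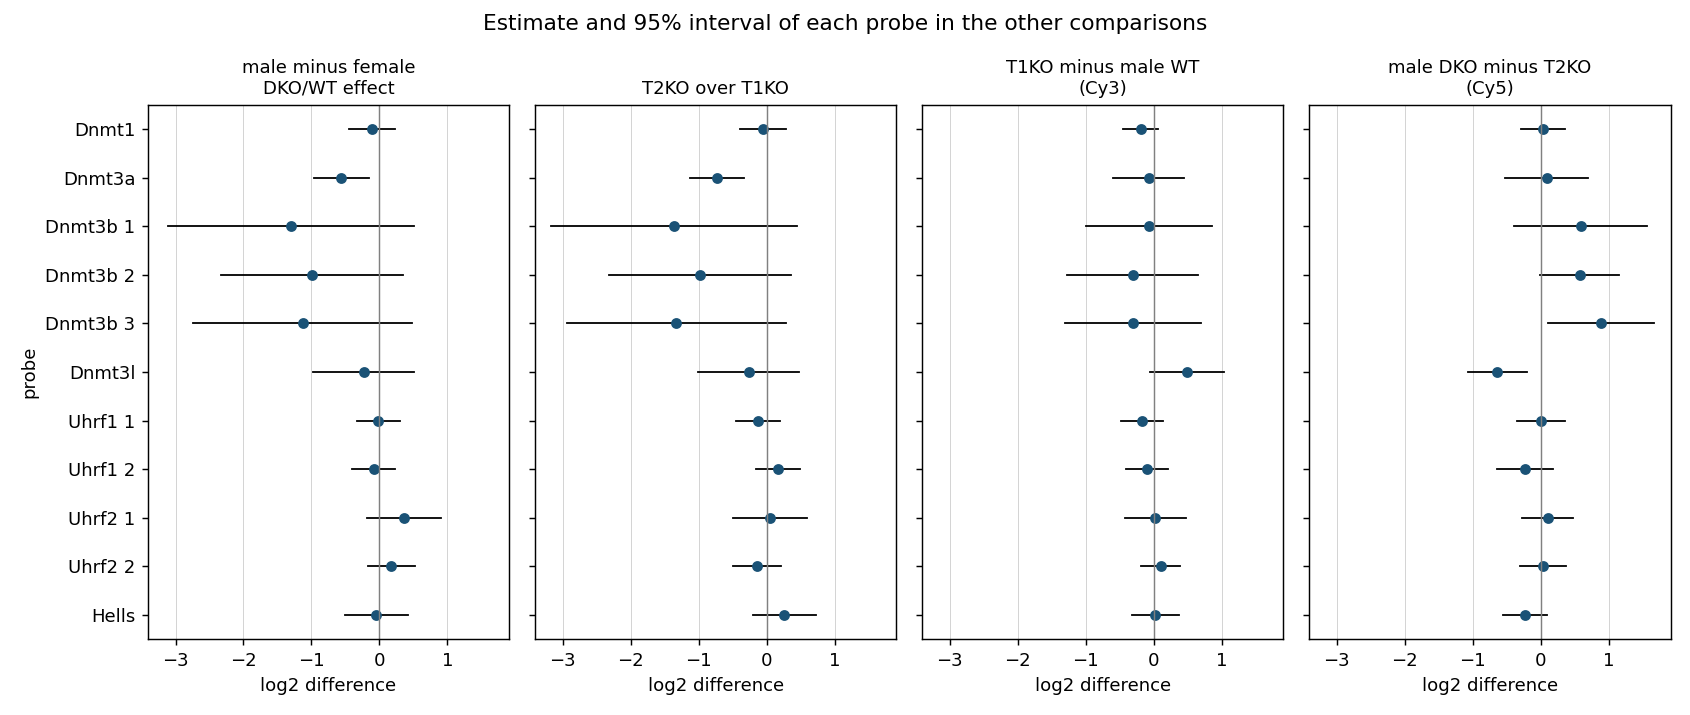
Estimated log2 difference and 95% interval from limma for each probe in 4 further comparisons. The intervals of Dnmt3b 1 and Dnmt3b 3 are wider than those of any other gene in every panel, and the intervals of Dnmt3a (male minus female, and T2KO over T1KO), Dnmt3l (male DKO minus T2KO) and Dnmt3b 3 (male DKO minus T2KO) exclude 0 before adjustment for 25851 probes. With normexp fitted on all spots, Dnmt3a in T2KO over T1KO was at -0.11 and no longer did so.

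The order of levels over the 11 lines had few clear steps. For Uhrf1 1, 3 of the 10 gaps between neighbouring lines exceeded the SD over the 4 WT lines (0.07), the largest being 0.15 between WT 94 and T1KO 65. For Dnmt3b 1 the only such gap, 0.80, lay between WT 94 and DKO 51 and set DKO 51, WT 7 and T2KO 16 apart from the other 8 lines. Dnmt3a, Dnmt3l and Uhrf2 2 had 1 such gap each. Dnmt1, Dnmt3b 2, Dnmt3b 3, Uhrf1 2, Uhrf2 1 and Hells had none, so their neighbours did not differ beyond that spread.

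The genes most like each member in level over the 11 lines were sought among 14845 named genes. For Uhrf1 1 they were Pcbp1 (r = 0.972) and Commd4 (r = 0.944), and for Dnmt1 Paf1 (r = 0.973) and Fkbpl (r = 0.961). Dnmt3b 1 was most like Zfp664 (r = 0.952) and Gatd3a (r = 0.929), and Dnmt3l was most like Txndc17 (r = 0.920) and Mospd3 (r = 0.911). The highest values were lower for Dnmt3a, with Comtd1 (r = 0.864), and Hells, with Cep57l1 (r = 0.881). Uhrf2 1 came closest to Tob1 (r = 0.925). The points have arrays, slides and dye in common, and the genes were picked as the highest of all those searched. Between members, Dnmt1 and Uhrf1 1 correlated at r = 0.851 (Spearman rho 0.845), and both are divided by dye.

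The wider methylation pathway was examined by lists, each gene by its brightest probe, in DKO over WT. Over all 20651 genes 2.66% rose, 1.58% fell and the median log2 ratio was 0.02. Among 21 partners and regulators of the methyltransferases 2 rose, 1 fell and the median was 0.02. The histone H3 lysine 9 methyltransferase genes Ehmt1 and Suv39h2 rose by 0.52 and 0.50 (limma adjusted p = 0.0232 and 0.0282), and median centring moved these ratios to 0.97 and 1.03. Both genes divided the lines by dye, since Ehmt1 stood at 14.12 or above in every Cy5 line, against 14.06 or below in every Cy3 line, and Suv39h2 at 14.94 or above in every Cy5 line, against 14.63 or below in every Cy3 line. The share of tested probes with every Cy5 line above every Cy3 line is not given here. Pcna, the sliding clamp to which Dnmt1 binds at the replication fork, fell by 0.52 (adjusted p = 0.0302). Pcna stood at 15.41, 15.43, 15.43 and 15.28 in DKO 51, 61, 60 and 59 and at 15.25 in T2KO 16, against 15.91, 15.95, 15.83 and 15.93 in WT 6, 92, 7 and 94 and 15.83 and 15.70 in T1KO 99 and T1KO 65. Like Uhrf1 1, it divided the lines by dye, and median centring turned its ratio to 0.10, or -0.09 relative to the median of all probes. Usp7, a deubiquitinase that acts on Dnmt1 (0.18), and Cdca7, a partner of Hells (0.25), did not pass (adjusted p = 0.151 and 0.0878).

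Among 21 S-phase genes none rose, 4 fell (Pcna, Chaf1b, Ccne1 and Slbp, by 0.37 to 0.52) and the median log2 ratio was -0.09, but median centring gave 0.10, 0.10, 0.12 and -0.05 for these 4, none of which then passed, and a median of 0.32. Relative to the median of all probes, which median centring itself moved by 0.17, these 4 genes were at -0.09, -0.09, -0.07 and -0.24, and the list median was 0.13. For Pcna, Chaf1b and Ccne1, little was thus left of the ratios of -0.52, -0.44 and -0.41 found with loess. Chaf1b encodes a subunit of a histone chaperone that acts at replication forks, Ccne1 encodes cyclin E1 and Slbp encodes a histone mRNA binding protein. Unlike Pcna, Chaf1b, Slbp and Ccne1 did not divide the lines by dye. T2KO 16 (Cy5) was above T1KO 65 (Cy3) for Chaf1b (14.98 and 14.77) and Slbp (12.25 and 12.06). For Ccne1, DKO 61 (14.75) was above T1KO 65 (14.59). No Mcm helicase gene of the list passed. Among 19 Tet enzymes, methylcytosine readers and repair genes 1 rose and 3 fell, and the median was -0.01. Ung, a uracil glycosylase, rose by 0.52 (adjusted p = 0.0232), and by 1.12 under median centring. It stood at 15.52 or above in every Cy5 line, against 15.48 or below in every Cy3 line, so it divided the lines by dye too. Apex1, an abasic-site endonuclease, fell by 0.48 (adjusted p = 0.0329) beside Tet1 and Tet2, but was at -0.08, or -0.27 relative to the median of all probes, and no longer passed under median centring. It did not divide the lines by dye, with T2KO 16 at 13.62 and T1KO 65 at 13.48. Of 12 genes of methyl donor supply none passed, and the median was 0.03.

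Germline genes that DNA methylation is known to silence gave 2 rises and no fall among 15 tested, and their median log2 ratio was 0.47. Dazl, which encodes an RNA-binding protein of germ cells, rose by 1.26 (limma adjusted p = 0.0232) and Mov10l1, an RNA helicase needed to make piRNAs, by 0.66 (adjusted p = 0.0459). The median ratio of these 15 genes was 0.86 for T2KO 16 over T1KO 65, where the T1KO lines stood near the WT lines. Their median level relative to the mean over the lines was -0.08 to 0.40 in DKO lines and 0.39 in T2KO 16. It was -0.35 and -0.33 in T1KO 99 and T1KO 65, and -0.45 to -0.11 in WT lines. The lines with a high median were thus all labelled in Cy5, and genotype and dye cannot be told apart. None of the 12 naive genes passed, and their median log2 ratio was -0.13. Of 11 primed genes none rose and 1, Sox11, fell (by 1.02, adjusted p = 0.0381), although 9 of the 11 ratios were above 0 and their median was 0.24. Sox11 divided the lines by dye as well, at 9.33 or below in every Cy5 line and 9.40 or above in every Cy3 line. Every Cy5 line was below every Cy3 line in 1.48% of tested probes. Fgf5 and Sox3 had the highest ratios of the primed list, 1.69 and 0.88, and did not pass (adjusted p = 0.168 and 0.109).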

How the data were processed

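RNA of 11 labelled ES cell lines was measured on 10 two-colour Agilent arrays, with 200 ng of RNA as the start of each labelling, per the labels. Per the file headers, the scanner files hold spot mean intensity and local background median intensity for both dyes, read by Agilent Feature Extraction and deposited without normalization. They also hold the log10 of the Cy5 to Cy3 ratio of processed signals, deposited as the scanner software gave it. The authors' value table (31595 probes, 31539 matched) is near a log2 ratio of Cy5 over Cy3 (r = 0.925 to 0.972 with the scanner ratio, column medians 0.00178 to 0.00752). How it was normalized and centred is unknown here.

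Background was corrected with normexp (offset 50), which was fitted leaving out gene spots below local background (71 to 122 an array), followed by loess within arrays and Aquantile between arrays (limma 3.58.1, R 4.3.3). Control spots and outlier spots (173 to 337 per array) were left out. The excluded channel of the T1KO 99 arrays entered the normalization. Repeat arrays (r = 0.919 to 0.955) were averaged. A probe was tested if each array of some genotype and sex had it well above background (25851 probes), by a two-sided moderated test (limma's lmFit, then eBayes) with Benjamini-Hochberg adjustment over all of them and a threshold of 0.05. The line or pair was the replicate, and p-values measure the spread between these lines, 2 for each genotype and sex and 1 for T2KO. Lines are paired by array, as the labels state: deviations from genotype means correlated within the 4 pairs at r = 0.309, 0.370, 0.197 and 0.514. In data simulated for DKO over WT on 25839 probes, 83 of 100 probes changed by 1 and 98 of 100 changed by 2 on the log2 scale were recovered, with 2 false calls. The largest mean difference of a member there was -0.49 (Dnmt3l), and recovery of changes of that size was not simulated. Members, lists, the normexp setting and the motifs were chosen with earlier results of these data known. All member probes are named, and other genes only from the lists or by likeness. Alternatives covered background, normalization, probe filter, pairing, variance prior and lines left out. Promoter windows are from RefSeq (GRCm38.p6), which listed all 7 genes. Plots were drawn with matplotlib 3.10.9 on Python 3.11.15.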

Additional observations from a re-analysis of the deposited data

Results flagged for a closer look

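Of 33 groups of 4 values checked (levels over the DKO lines, levels over the WT lines and pair ratios of the 11 probes), 1 held a value that stood apart, and chance marks about 1 in 20. The Dnmt3b 1 level of DKO 51 was 14.30, below the other 3 DKO lines, which lay between 15.13 and 15.19. Its gap to the next line was 0.933 of the range of the DKO lines. Neither of the other Dnmt3b probes met the criterion in the DKO lines.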

How the results depend on the processing

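The number of probes past the threshold in DKO over WT was 1033 (632 rises) and became 190 with normexp fitted on all spots, 537 in the authors' table, 417 among probes well above background in both channels, 1741 with the pair as a random block, 7 with sex as a covariate and 0 with a trended prior (6811 with an unadjusted p under 0.05 in limma). It was 774 (566 rises) with the scanner software's ratios and 8315 (7637 rises) with median centring. With no replicate block, the lines not paired by array, it was 822. Leaving out any pair gave 0 (4487 to 6043 with an unadjusted p under 0.05), and Uhrf1 1 then missed the threshold. Male DKO minus T2KO had 2, but 1 with normexp on all spots, and 0 without either male DKO line (3186 to 4290 with an unadjusted p under 0.05). The counts of 0 in the other comparisons remained 0 in limma under the alternatives run. Under median centring, which put the median of all probes at 0.19, the log2 ratios that changed sign in DKO over WT were 0.095 (Dnmt1), 0.035 (Dnmt3a), 0.42, 0.29 and 0.24 (Dnmt3b), 0.079 (Dnmt3l), and 0.13 and 0.075 (Uhrf1). In T2KO over T1KO they were 0.34 (Dnmt1), 0.42 (Dnmt3l), 0.48 (Uhrf1 1) and 0.12 (Uhrf2 2), and in male minus female 0.048 (Dnmt1), 0.15 (Uhrf1 1) and 0.11 (Hells). With normexp on all spots, Uhrf2 2 turned to -0.014 in DKO over WT, Uhrf1 1 and Hells to 0.0071 and 0.015 in male minus female, Dnmt1 to 0.14 in T2KO over T1KO, Uhrf2 1 to -0.011 in T1KO minus WT, and Dnmt1, Dnmt3a and Uhrf1 1 to -0.062, -0.072 and -0.014 in male DKO minus T2KO. In male minus female Uhrf1 1 was 0.0017 with the scanner's ratios, and in male DKO minus T2KO it was -0.025 with the Cy5 channel normalized alone. With a pair left out, DKO over WT ranged from -0.52 to 0.36, -0.43 to 0.23 and -0.51 to 0.27 (Dnmt3b 1, 2 and 3) and from -0.029 to 0.059 (Uhrf2 2). With a line left out, T1KO minus WT ranged from -0.31 to 0.15 (Dnmt3a), -0.47 to 0.34, -0.70 to 0.086 and -0.69 to 0.088 (Dnmt3b 1, 2 and 3), -0.19 to 0.24 (Uhrf2 1) and -0.056 to 0.11 (Hells), and male DKO minus T2KO from -0.018 to 0.033 (Uhrf1 1). The cause of these changes was not tested. Of the other values of single members 295 kept direction and side of the threshold (Dnmt3a in T2KO over T1KO among them, though at -0.11 with normexp on all spots), 8 (all Uhrf1 1) kept direction without passing, and Uhrf2 1 and Hells passed as rises under median centring (0.52 and 0.39). The number of lines limits every comparison, and a missed threshold does not show equal levels.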
